A study of Mus musculus with 20 samples.

Results

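The genes described here fold, inspect and degrade proteins in the endoplasmic reticulum (ER) or signal when that work falls behind. They comprised 37 named genes of the 19938 genes measured, and each was followed by its brightest probe set by mean value over all 20 arrays, among those annotated to that gene alone. All 37 were measured. They fell into 11 chaperones, 6 genes of oxidative folding, 9 genes of ER-associated degradation (ERAD), 3 stress sensors and transcription factors, 5 genes of the PERK-ATF4 arm and 3 genes of the translocon. RNA of C57bl6/J mouse islets was hybridised to Affymetrix MoGene 1.0 ST arrays. Islets that had stayed in the pancreas came from non-pregnant females (NP, n = 4) and from females on day 12.5 of pregnancy (P12.5, n = 4). Grafts were islets of female or male donors placed under the kidney capsule of female hosts, and came from NP or P12.5 hosts, with 3 arrays per donor sex and state. All graft hosts had been made diabetic with streptozotocin before transplantation, and the study describes no such treatment for the other mice. The islet arrays are marked as a reanalysis, so array batch, streptozotocin and transplantation cannot be told apart in any comparison of grafts with islets.

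Beta cells secrete large amounts of insulin, and every proinsulin molecule enters the ER through the translocon, is folded with the help of chaperones and gains its disulfide bonds there. Proteins that do not fold are drawn back to the cytosol through ERAD and destroyed. Unfolded protein activates the sensors IRE1 (Ern1), ATF6 and PERK (Eif2ak3): IRE1 splices Xbp1 mRNA into the form that encodes an active transcription factor, ATF6 is cut to release one, and PERK slows translation and favours that of ATF4, which in turn induces Ddit3 (CHOP) and Trib3. Much of this signalling takes place after transcription, and the arrays measured mRNA levels alone.

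Many genes of this response carry the ER stress response element (ERSE) in their promoter, which was searched here as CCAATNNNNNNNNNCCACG on both strands, with N for any base. RefSeq promoters (GRCm38.p6, 250 bases before to 50 after the annotated start) were found for 32 of the 37 genes. The element was in 10 of these 32 (31.2%), against 37 of all 27025 genes with a promoter (0.137%). It was in 6 of 9 chaperone promoters, 2 of 6 of oxidative folding and 2 of 8 of ERAD, but in 0 of 5 promoters of the PERK-ATF4 arm. The shorter ERSE-II (ATTGGNCCACG) was in 2 of 32 against 0.0444% of all genes with a promoter. The element was first described in promoters of this kind, so these counts are descriptive. The sites below are shown because they lie in the promoter windows of the central chaperones Hspa5 and Calr and of 4 ERAD and co-chaperone genes whose levels are compared later. Capitals mark the fixed bases of the element, and each sequence runs 5′ to 3′ along the strand on which the element reads as written above.
Hspa5, chr2:34772020-34772048, plus strand: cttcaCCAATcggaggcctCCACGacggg
Calr, chr8:84847070-84847098, plus strand: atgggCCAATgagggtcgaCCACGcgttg
Derl3, chr10:75893237-75893265, minus strand: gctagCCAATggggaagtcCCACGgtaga
Syvn1, chr19:6046527-6046555, plus strand: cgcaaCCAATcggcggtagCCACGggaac
Dnajb11 (ERSE-II), chr16:22857847-22857867, plus strand: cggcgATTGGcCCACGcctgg
Herpud1 (ERSE-II), chr8:94386372-94386392, plus strand: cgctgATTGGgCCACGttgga

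The Hspa5 element began 65 bases before the start and the Syvn1 element 44 bases before it, and the Dnajb11 element lay 7 bases after the start. No match to either element was found within the searched window of Edem1, Edem2, Ern1, Sdf2l1 or Dnajb9. The UPR element core (TGACGTGG) was in 0 of the 32 and in 0.714% of all genes with a promoter. The ATF4 element (TGATGNAA) was in the promoters of Herpud1 and Trib3, that is in 2 of 32 (6.25%), and in 4.51% of all genes with a promoter. A match describes letters and is no evidence of binding.

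All values are log2 levels after robust multichip analysis, rounded to 1 decimal in the deposited table, so 0.1 is the smallest step. The lowest value of any of the 37 genes on any array was 6.1, above the lower quartile of every array (4.7 to 4.9). Differences are P12.5 minus NP on the log2 scale with their standard error (SE). A gene was called when limma gave an adjusted p under 0.05, with Benjamini-Hochberg adjustment over all 35511 probe sets, and the change was at least 1.5-fold. Pearson's r between replicate arrays lay between 0.971 and 0.989. NP islet array 1 stood apart, with a highest value of 13.4 against 14.4 to 14.6 on the other arrays. The 10 measured beta cell markers of 12 had mean levels of 10.6 to 11.3 on all arrays. In the islets that mean was 10.91 to 11.19 on the NP arrays and 11.22 to 11.31 on the P12.5 arrays, a difference of 0.185 without overlap. Single markers in female grafts had differences of -0.70 to 1.00, with 1 called up, 2 higher without overlap and 2 lower without overlap. Those in male grafts were -0.60 to 0.40, with 0 called and 1 lower without overlap. The part of the beta cell markers in the differences below was not tested. Tissue was measured in bulk, so more cells of a type and more RNA per cell cannot be told apart.

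In islets that stayed in the pancreas, 5 of the 37 genes rose with pregnancy and none fell. Of all genes, 0.908% were called up and 0.0903% down. The 5 called were the ERAD genes Derl3, Edem1 and Edem2, the sensor Ern1 and the chaperone-associated Sdf2l1. The differences were broad and small around them: 34 of 37 (91.9%) were positive, against 45.9% of all genes. The median was 0.20, against 0 over all genes. The arrays of the groups did not overlap, with P12.5 higher, for 15 of 37, against 5.05% of all genes. An unadjusted p under 0.05 in limma was reached by 22 upward and 0 downward. The share of all genes at that p was not counted, here or in the comparisons below, so these counts have no background beside them.

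Derl3 encodes a derlin, a membrane protein of the ERAD channel. Its level was 7.1 on all 4 NP arrays and 8.4, 8.2, 8.1 and 7.9 on the P12.5 arrays. The difference was 1.05 ± 0.10, or 2.07-fold (adjusted p = 0.00137), the largest of the 37 genes. Derl3 is also abundant in pancreatic acinar cells, whose remnants cling to isolated islets. The mean of 17 measured acinar markers of 20 ranged from 7.45 to 9.26 on the NP arrays, on which Derl3 did not vary, and from 7.94 to 9.09 on the P12.5 arrays. Of these 17 markers 0 were called, and 14 were lower in P12.5. Their median SE was 0.50, against 0.09 over all genes, so the missing calls do not show that acinar content was alike. In the grafts the acinar mean was far lower, but its group means were higher in P12.5, as were those of Derl3. On every graft array the acinar mean lay below the array median (5.9 to 6.0). In female grafts it was 5.11 to 5.16 in NP and 5.26 to 5.33 in P12.5, higher without overlap by 0.157, with 15 of 17 markers positive and 0 called. In male grafts it was 5.07 to 5.28 and 5.24 to 5.39, with overlap, a difference of 0.137 and 13 of 17 positive. Derl3 was 6.9 to 7.4 in NP grafts and 7.8 to 8.4 in P12.5 grafts of both sexes, and the part of these markers in its differences was not tested. The plot of Derl3 against these markers shows the 20 arrays.

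**Figure D1:**
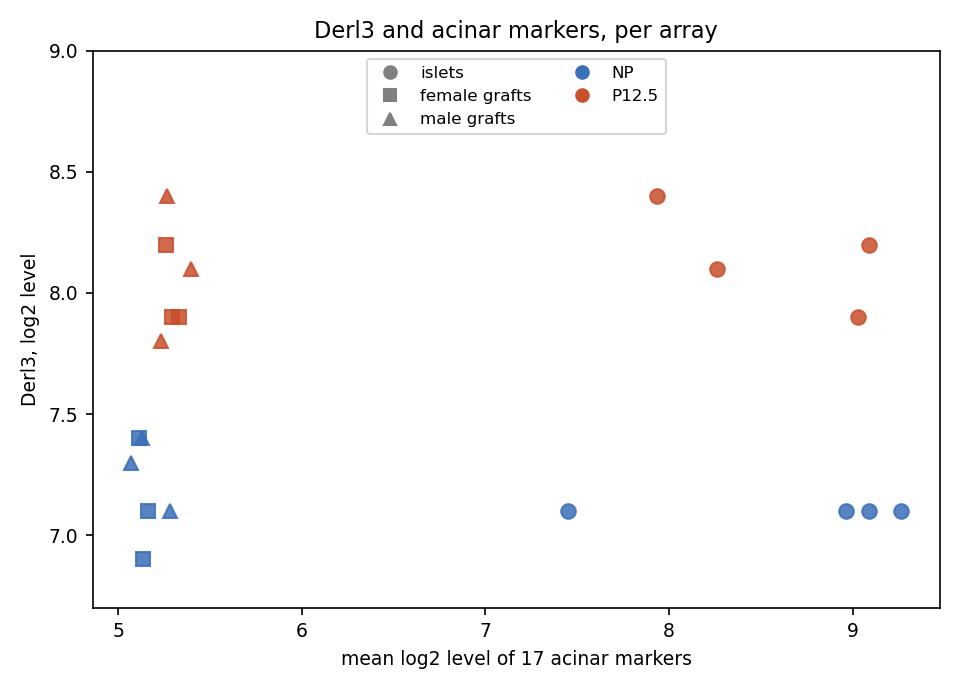
Log2 level of Derl3 (vertical axis) against the mean log2 level of 17 acinar markers (horizontal axis) on each of 20 arrays; shape marks islets, female grafts and male grafts, and colour marks NP and P12.5. All P12.5 arrays lie at 7.8 or above and all NP arrays at 7.4 or below, at acinar levels of 5.07 to 9.26.

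Edem1 and Edem2 encode lectin-like mannosidases that hand misfolded glycoproteins to ERAD. Edem1 was 9.4, 9.1, 9.1 and 9.1 in NP islets and 10.0, 10.0, 9.9 and 9.9 in P12.5 islets. The groups were well separated, by 0.78 ± 0.09 (adjusted p = 0.00306). Edem2 was 9.0, 9.0, 8.9 and 8.7 in NP and 9.6, 9.6, 9.5 and 9.3 in P12.5 islets, a difference of 0.60 ± 0.10 (adjusted p = 0.0206) that lay just above the fold minimum. The call of Edem2 was kept only when P12.5 array 4 was the array left out, and its difference was 0.53 to 0.67 over the 8 removals. The third family member, Edem3, had a difference of 0.30 ± 0.09 (adjusted p = 0.21).

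The rest of ERAD moved less. Sel1l and Syvn1, which together form the ubiquitin ligase at the core of ERAD (SEL1L-HRD1), had differences of 0.18 ± 0.07 and 0.18 ± 0.13. Derl1 (0.20) and Derl2 (0.18) were similar in size. Herpud1, which brings together the parts of that ligase complex, was 10.2, 10.3, 10.4 and 10.3 in NP islets and 10.3, 10.2, 10.3 and 10.3 in P12.5 islets. Its difference was -0.03 ± 0.07, so the 9 ERAD genes ranged from -0.03 to 1.05 with a median of 0.20, equal to the median of all 37.

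Ern1, the sensor IRE1 itself, was 9.2, 9.3, 9.3 and 9.3 in NP islets and 10.0, 10.0, 10.2 and 10.1 in P12.5 islets. Its difference of 0.80 ± 0.07 had the smallest adjusted p of the 37 genes (0.000944). Xbp1, the target of its splicing activity, was 9.9 on all 4 NP arrays and 10.2, 10.3, 10.3 and 10.0 on the P12.5 arrays. The groups did not overlap, but 0.30 ± 0.08 missed both parts of the call (adjusted p = 0.141). Spliced and unspliced Xbp1 mRNA were not told apart by these values. Atf6 was 9.4, 9.3, 9.3 and 9.3 against 9.3, 9.4, 9.4 and 9.2, with a difference of 0.00 ± 0.07.

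All 11 chaperone genes had positive differences in islets, from 0.05 to 0.60 with a median of 0.25. Sdf2l1, which works with the Hsp40 proteins of the ER to keep clients soluble, was 9.5, 9.5, 9.4 and 9.4 in NP and 10.2, 10.0, 9.9 and 10.1 in P12.5 islets. Its difference was 0.60 ± 0.08 (adjusted p = 0.0077), and without NP array 3, NP array 4, P12.5 array 1 or P12.5 array 4 it fell to 0.55 to 0.58, under the fold minimum. Calr (calreticulin, which binds glycoproteins) passed the adjusted p but not the fold, at 10.5, 10.7, 10.6 and 10.6 against 11.1, 11.0, 11.0 and 10.9 (0.40 ± 0.07, adjusted p = 0.0352).

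Hspa5 encodes BiP, the main Hsp70 of the ER. It was 11.3, 11.5, 11.4 and 11.5 in NP islets and 11.7, 11.6, 11.7 and 11.5 in P12.5 islets, so 1 P12.5 array equalled the highest NP arrays, and the difference was 0.20 ± 0.08 (adjusted p = 0.35). Hsp90b1 (GRP94) was 11.5, 11.8, 11.8 and 11.8 against 11.9, 11.8, 12 and 11.8, or 0.15 ± 0.09 (adjusted p = 0.591). Dnajb11, an Hsp40 partner of BiP, was 8.8, 8.6, 8.5 and 8.5 against 9.3, 9.1, 9.1 and 8.9. It did not overlap, but 0.50 ± 0.10 was not called (adjusted p = 0.0585). The partner Dnajb9 was 10.7, 10.5, 10.4 and 10.6 against 11.0, 10.9, 10.9 and 10.5, with overlap (0.28 ± 0.12, adjusted p = 0.401).

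In oxidative folding and the translocon limma called 0 of 9 genes in islets, and 5 of the 9 had an unadjusted p under 0.05. P4hb, the protein disulfide isomerase, was 11.3, 11.6, 11.5 and 11.5 in NP and 11.9, 11.8, 11.8 and 11.8 in P12.5 islets (0.35 ± 0.08, adjusted p = 0.0804). Pdia6, a further isomerase, was 11.0, 11.1, 11.1 and 11.1 against 11.5, 11.4, 11.4 and 11.3 (0.33 ± 0.07, adjusted p = 0.0642). Both isomerases were higher in P12.5 without overlap. The other 4 genes of the class, the isomerases Pdia3 and Pdia4 and the oxidases Ero1a and Ero1b, had differences between 0.10 and 0.18. Sec61a1, which forms the translocon channel, was 10.6, 10.6, 10.6 and 10.5 in NP and 11.0, 10.9, 10.8 and 10.7 in P12.5 islets. Ssr1, a subunit of the translocon-associated complex, was 9.6, 9.6, 9.7 and 9.6 against 10.0, 9.9, 9.9 and 9.8. Both differed by 0.28 without overlap, and Sec61b, a small subunit of the channel, differed by 0.25 with overlap.

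The PERK-ATF4 arm showed no call in islets by limma, and 1 of its 5 genes had an unadjusted p under 0.05, Eif2ak3. Eif2ak3 (PERK) was 8.8, 8.6, 8.6 and 8.6 in NP and 9.0, 8.9, 8.8 and 8.7 in P12.5 islets, or 0.20 ± 0.09 (adjusted p = 0.401). Atf4 was 8.3, 8.4, 8.3 and 8.6 against 8.7, 8.6, 8.7 and 8.2, with overlap. Ddit3, the pro-apoptotic factor CHOP, was 6.7, 6.9, 6.7 and 7.1 against 6.8, 6.9, 6.8 and 6.8, a difference of -0.03 ± 0.10. Trib3, a pseudokinase that ATF4 and CHOP induce, was 6.5, 6.9, 7.1 and 7.1 against 7.3, 6.8, 7.2 and 6.7 (0.10 ± 0.17). Ppp1r15a, the phosphatase subunit that ends the PERK signal, was 6.7, 6.5, 6.4 and 6.4 against 6.7, 6.5, 6.7 and 6.7 (0.15 ± 0.09), so the groups overlapped for all 5 genes. The 5 differences lay between -0.03 and 0.20, with a median of 0.15.

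**Figure D2:**
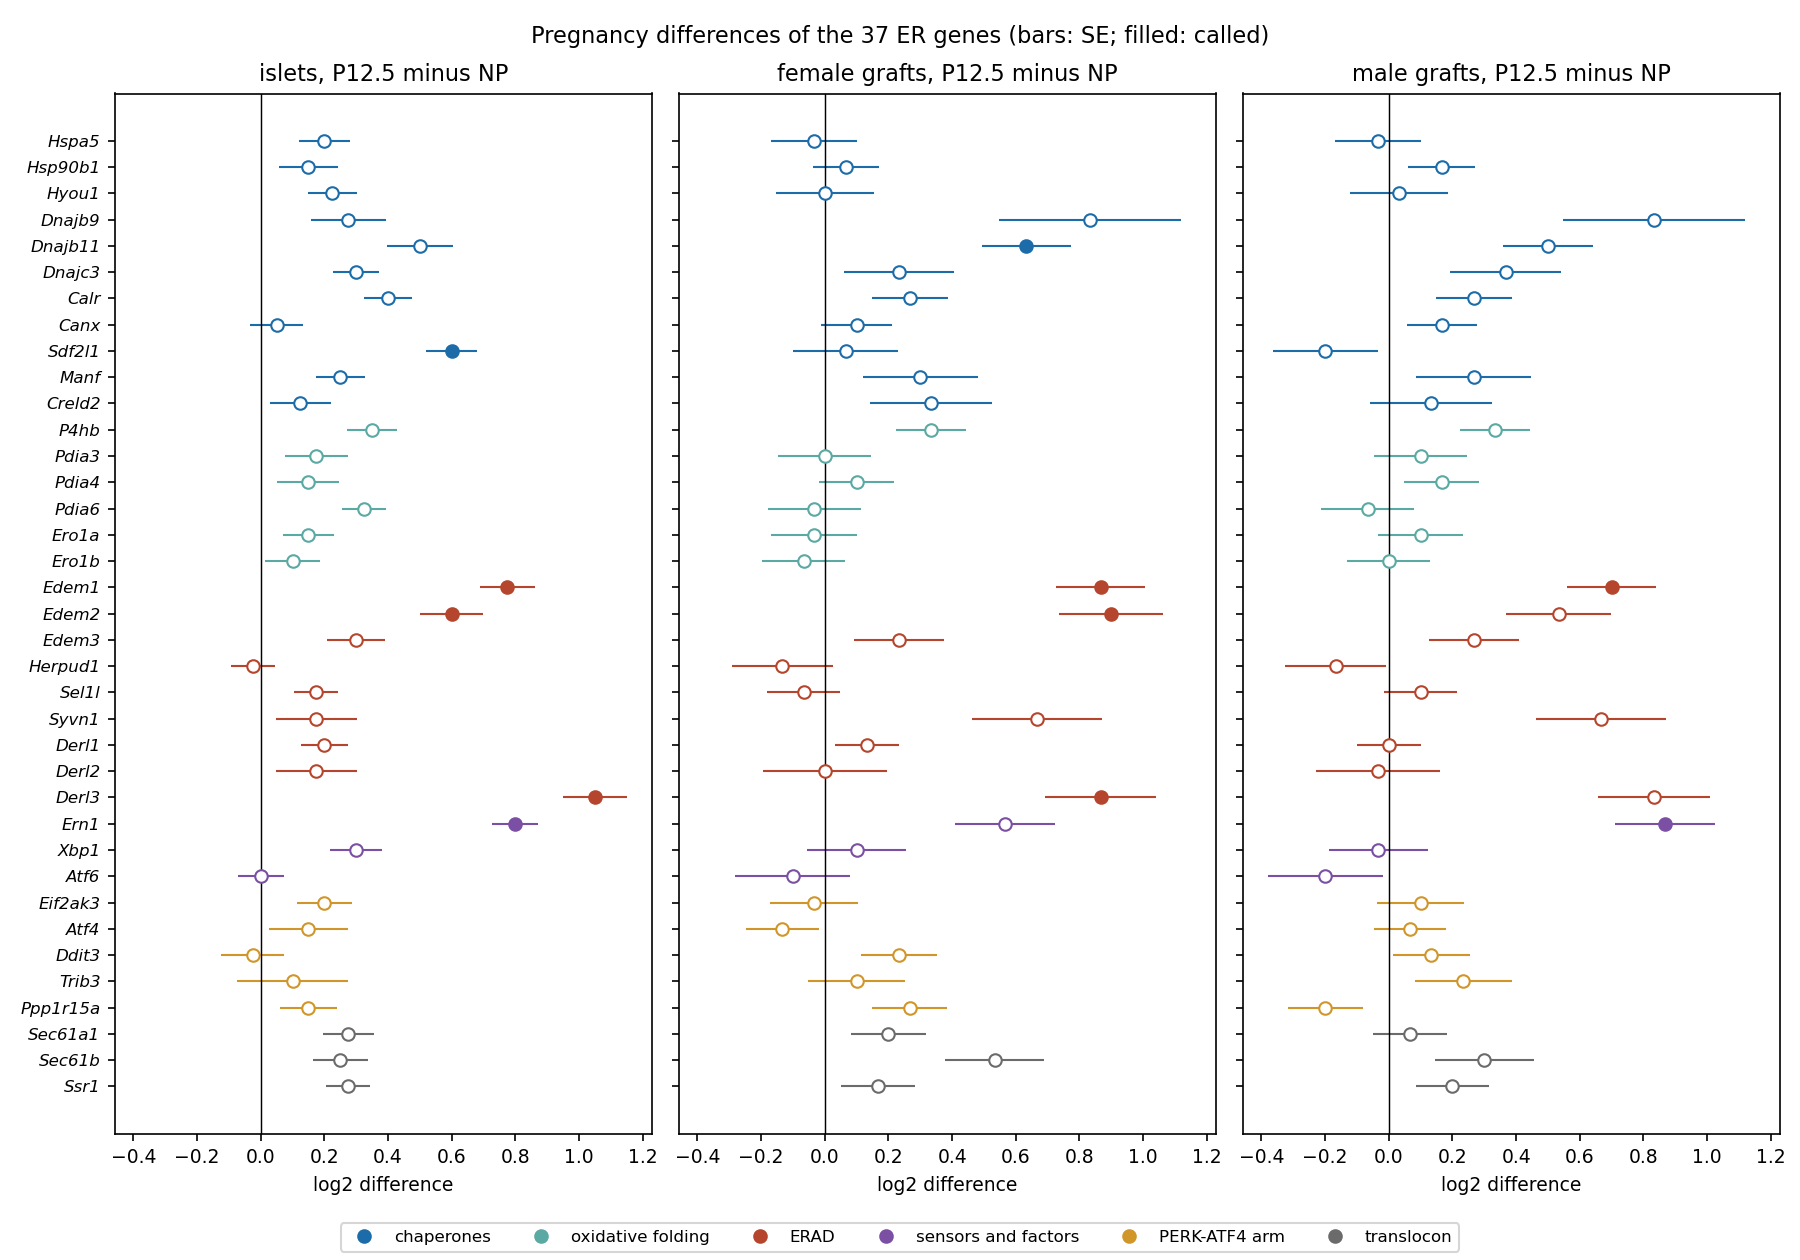
Differences (P12.5 minus NP, log2, horizontal axis) of the 37 genes in islets, female grafts and male grafts, with bars of 1 SE, colour for the class and filled points for genes called. The filled points lie at 0.60 or above and belong to ERAD, to Ern1 and to the chaperone class, and the 5 points of the PERK-ATF4 arm stay between -0.20 and 0.27 in all panels.

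In grafts of female donors, 4 of the 37 genes rose with pregnancy of the host and none fell, with 0.717% of all genes called up and 0.451% down. They were Edem2, Edem1, Derl3 and the co-chaperone Dnajb11. The median difference was 0.13 over the 37 genes and 0.03 over all genes. Of the 37, 25 (67.6%) were positive, against 52.5% of all genes. Groups did not overlap, with P12.5 higher, for 9 of 37 against 11.4% of all genes. An unadjusted p under 0.05 was reached by 11 upward and 0 downward. Kidney markers were higher in these NP grafts: the mean of 11 measured kidney markers of 12 was 7.92 to 8.93 in NP and 5.84 to 7.34 in P12.5 grafts. The mean of 6 markers of other endocrine cells was also lower in P12.5 without overlap (10.97 to 11.02 against 10.52 to 10.90), and the acinar mean was higher, as given for Derl3. The part of these lists in the differences was not tested. In male grafts the kidney mean overlapped, at 6.55 to 8.36 in NP and 6.62 to 8.57 in P12.5.

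Edem2 was 8.5, 8.5 and 8.4 in female NP grafts and 9.4, 9.4 and 9.3 in P12.5 grafts, a difference of 0.90 ± 0.16 (adjusted p = 0.0263). Edem1 was 9.1, 9.1 and 9.4 against 10.1, 10.1 and 10.0 (0.87 ± 0.14, adjusted p = 0.0192). Derl3 was 6.9, 7.1 and 7.4 against 7.9, 8.2 and 7.9 (0.87 ± 0.18, adjusted p = 0.0366). All 3 ERAD genes were without overlap. Dnajb11 was 8.2, 8.5 and 8.7 against 9.1, 9.0 and 9.2 (0.63 ± 0.14, adjusted p = 0.0461). Ern1, at 9.2, 9.3 and 9.8 against 10.2, 9.9 and 9.9, stayed just under the fold minimum and missed the adjusted p (0.57 ± 0.16, adjusted p = 0.0831).

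These calls rested on few arrays. Without any one of NP arrays 1 and 2 or the 3 P12.5 arrays, 0 of the 37 genes were called, and without NP array 3 there were 3, of which 1 (Edem1) was among the 4. Over these 6 removals the differences were 0.82 to 0.97 for Edem1, 0.87 to 0.93 for Edem2, 0.75 to 1.00 for Derl3 and 0.50 to 0.75 for Dnajb11. NP array 3 had the highest chaperone mean of the NP grafts (10.5, against 10.1 and 10.3 on the other NP arrays).

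In grafts of male donors 2 of the 37 genes were called, both up, against 0.306% of all genes up and 0.451% down. Markers of other cells moved here too. Of 9 plasma and B cell markers 2 were called down, the B cell genes Ms4a1 (-1.53 ± 0.19, adjusted p = 0.00827) and Cd79a (-1.23 ± 0.20, adjusted p = 0.0202), and 5 were lower without overlap. The list did not move one way: 3 of the 9 had positive differences, up to 0.73, and 1 was higher in P12.5 without overlap. The mean of the list overlapped, at 5.81 to 6.18 in NP and 5.37 to 5.96 in P12.5 grafts. All 8 endothelial markers had positive differences, 0 of them called, with a mean of 6.61 to 7.10 against 6.85 to 8.11. Male P12.5 array 3 had that highest endothelial mean. It also had the highest mean of 9 stromal markers (10.59) and the lowest beta cell mean (10.60) of all arrays. The part of these markers in the differences was not tested. Ern1 was 9.0, 9.2 and 9.2 in NP and 10.0, 10.1 and 9.9 in P12.5 grafts (0.87 ± 0.16, adjusted p = 0.0305). Edem1 was 9.1, 9.3 and 9.4 against 10.1, 10.1 and 9.7 (0.70 ± 0.14, adjusted p = 0.0437). Both were without overlap. Derl3 came close, with 7.1, 7.4 and 7.3 against 8.4, 8.1 and 7.8 (0.83 ± 0.18, adjusted p = 0.0513). Edem2 overlapped, with 8.4, 8.6 and 8.9 against 9.3, 9.4 and 8.8 (0.53 ± 0.16, adjusted p = 0.124). The Ern1 call was lost in all 6 removals of an array and the Edem1 call in 5 of 6, with counts of 0 or, without P12.5 array 3, 1. The median difference was 0.13 over the 37 genes and 0 over all genes. For 10 of 37 genes the P12.5 arrays were higher without overlap, against 8.24% of all genes, and 9 upward and 0 downward had an unadjusted p under 0.05.

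**Figure D3:**
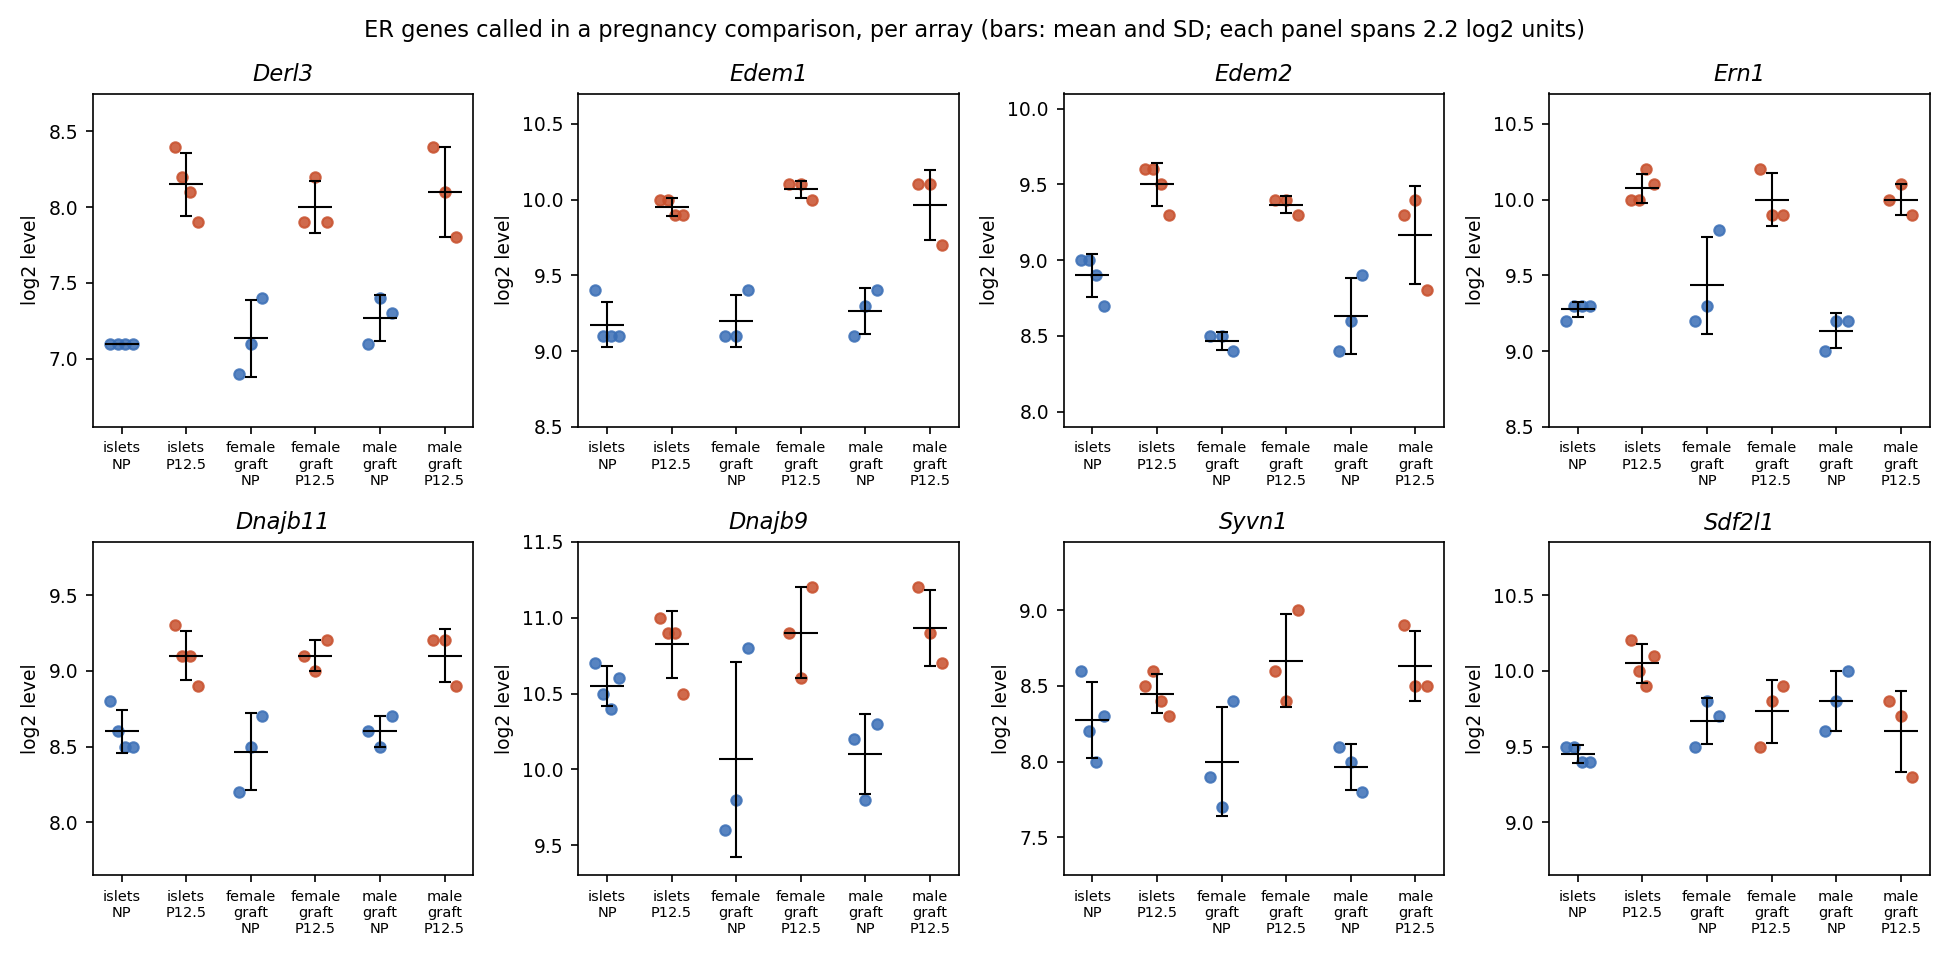
Log2 levels per array (points) with group mean and SD (bars) of the 8 genes called in a pregnancy comparison; every panel spans the same log2 range, and blue is NP and red P12.5. Derl3, Edem1, Ern1 and Dnajb11 are higher in P12.5 without overlap in islets, female grafts and male grafts, and the Sdf2l1 groups are separate in islets and overlap in both kinds of graft.

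Averaged over both donor sexes, which uses the same 12 graft arrays and is no independent result, 6 of the 37 genes were called up and 0 down, against 0.687% of all genes up and 1.19% down. Derl3 (0.85), Edem1 (0.78), Edem2 (0.72) and Ern1 (0.72) kept the call in each of the 12 removals of an array. The further 2 were Dnajb9 and Syvn1. Dnajb9 (ERdj4), an Hsp40 protein that targets clients to ERAD, was 9.6, 9.8 and 10.8 in female NP and 10.9, 10.6 and 11.2 in female P12.5 grafts. In male grafts it was 10.2, 9.8 and 10.3 against 11.2, 10.9 and 10.7. The mean difference was 0.83 ± 0.20 (adjusted p = 0.0238). It was lost without female NP array 2, female P12.5 array 3 or male NP array 2, with adjusted p of 0.0517 to 0.0572.

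Syvn1 (HRD1), the ubiquitin ligase of ERAD, was 7.9, 7.7 and 8.4 in female NP and 8.6, 8.4 and 9.0 in female P12.5 grafts. In male grafts it was 8.1, 8.0 and 7.8 against 8.9, 8.5 and 8.5. The mean difference was 0.67 ± 0.14 (adjusted p = 0.0166), and without female P12.5 array 3 it fell to 0.58, under the fold minimum. In islets the same gene was 8.6, 8.2, 8.0 and 8.3 against 8.5, 8.6, 8.4 and 8.3, with overlap. Dnajb11 (0.57), P4hb (0.33) and Sec61b (0.42) passed the adjusted p in the mean over sexes but not the fold.

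The central chaperones were not called in grafts. Hspa5 was 11.4, 11.6 and 11.7 in female NP and 11.6, 11.4 and 11.6 in female P12.5 grafts. In male grafts it was 11.4, 11.6 and 11.8 against 11.6, 11.7 and 11.4, and both differences were -0.03 ± 0.14. Hsp90b1 had differences of 0.07 ± 0.10 and 0.17 ± 0.10. Sdf2l1, called in islets, was 9.5, 9.8 and 9.7 against 9.5, 9.8 and 9.9 in female grafts (0.07 ± 0.17) and 9.6, 9.8 and 10.0 against 9.8, 9.7 and 9.3 in male grafts (-0.20 ± 0.17). P4hb was higher without overlap in both, with 11.3, 11.4 and 11.6 against 11.7, 11.9 and 11.7 and, in male grafts, 11.4 on all 3 arrays against 11.8, 11.8 and 11.6. Each difference was 0.33 ± 0.11 (adjusted p = 0.121 and 0.146).

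Xbp1 was 9.7, 9.7 and 9.8 against 9.9, 10.0 and 9.6 in female grafts and 9.5, 9.7 and 10.0 against 9.7, 9.9 and 9.5 in male grafts, with overlap in both. Atf6 overlapped as well, at 9.3, 9.2 and 9.9 against 9.6, 9.3 and 9.2 in female grafts and 9.5, 9.7 and 9.7 against 9.6, 9.4 and 9.3 in male grafts. Herpud1 was 10.2, 9.9 and 10.3 against 9.9, 10.0 and 10.1 in female grafts and 9.6, 10.1 and 10.1 against 9.9, 9.8 and 9.6 in male grafts, so this ERAD gene had differences below 0 in both (-0.13 ± 0.16 and -0.17 ± 0.16). In the PERK-ATF4 arm, 0 of 5 genes were called in grafts of either sex. Eif2ak3 was 8.8, 8.7 and 9.1 against 8.9, 8.8 and 8.8 in female grafts and 8.6, 8.6 and 8.9 against 9.0, 8.7 and 8.7 in male grafts. Atf4 was 8.2, 8.1 and 8.3 against 8.1, 8.1 and 8.0 in female grafts and 8.0, 8.2 and 8.4 against 8.3, 8.3 and 8.2 in male grafts.

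Ddit3 was 6.6, 6.6 and 6.7 against 6.7, 6.8 and 7.1 in female grafts and 6.6, 6.7 and 6.8 against 6.7, 6.9 and 6.9 in male grafts, with differences of 0.23 ± 0.12 and 0.13 ± 0.12. Trib3 was 6.7, 6.8 and 6.7 against 6.6, 7.1 and 6.8, and 6.4, 6.9 and 6.6 against 6.8, 7.0 and 6.8. Ppp1r15a went separate ways in the samples: it was 6.2, 6.3 and 6.5 against 6.6 on all 3 arrays in female grafts, and 6.5 on all 3 arrays against 6.5, 6.3 and 6.1 in male grafts. The differences were 0.27 ± 0.12 and -0.20 ± 0.12, neither called, and the difference between the sexes is given below. In female grafts the groups did not overlap and limma gave an unadjusted p under 0.05, and in male grafts neither held.

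**Figure D4:**
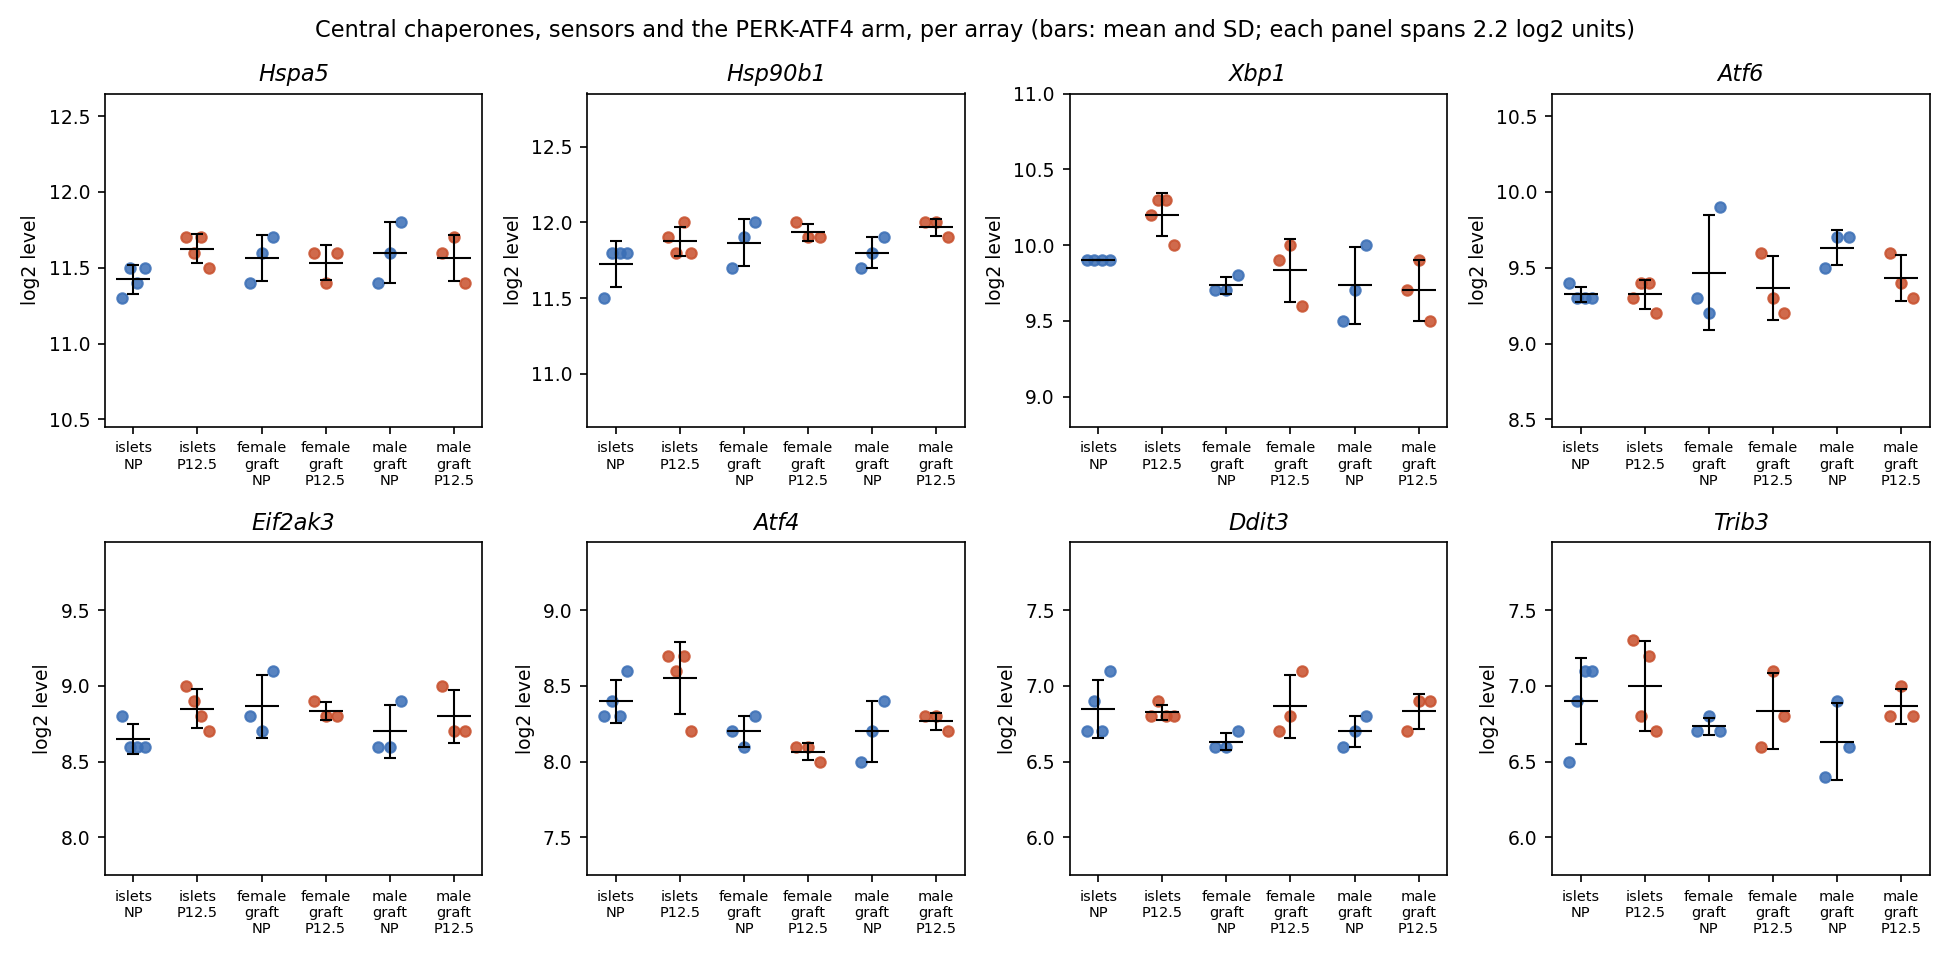
Log2 levels per array (points) with group mean and SD (bars) of 2 central chaperones, 2 transcription factors and 4 genes of the PERK-ATF4 arm; every panel spans the same log2 range, and blue is NP and red P12.5. NP and P12.5 arrays overlap in every pair of groups shown except Xbp1 in islets. Ppp1r15a of the PERK-ATF4 arm, which did not overlap in female grafts, is not shown.

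Set side by side, the ERAD class was higher in P12.5 without overlap in all 3 comparisons, whereas the chaperone class was so in islets and the PERK-ATF4 arm in none. The mean level of the 9 ERAD genes was 8.78 to 8.97 on the NP and 9.09 to 9.30 on the P12.5 islet arrays. It was 8.68 to 9.01 against 9.19 to 9.21 in female grafts and 8.71 to 8.94 against 8.97 to 9.33 in male grafts. The differences of the group means were 0.38, 0.39 and 0.32. Those of the 11 chaperones were 0.28, 0.25 and 0.23, and those of the PERK-ATF4 arm 0.12, 0.09 and 0.07. Leaving out 1 array moved the ERAD differences to between 0.24 and 0.49 over the 3 comparisons. Without female NP array 1 the chaperone difference in female grafts was 0.13, the lowest of 0.13 to 0.38 over the removals. The PERK-ATF4 difference was 0.07 without P12.5 islet array 1, 0.14 without female NP array 3, and 0.00 to 0.11 over the removals in male grafts, where NP array 1 gave the lowest and NP array 3 the highest. The ERAD means were carried by a few genes: the median differences of its 9 genes were 0.20, 0.23 and 0.27, close to those of the chaperones (0.25, 0.23 and 0.17). The PERK-ATF4 medians were 0.15, 0.10 and 0.10. In the further genes the order was another: the mean of 21 further ERAD genes overlapped in all 3 comparisons (differences of 0.119, 0.117 and 0.0412). That of 32 further folding genes was higher in P12.5 without overlap in all 3 (0.174, 0.174 and 0.183). The mean of 27 further ATF4 targets and eIF2 genes was higher in P12.5 without overlap in islets (0.155). It overlapped in female and male grafts (0.0592 and -0.0136). No test was made between classes.

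**Figure D5:**
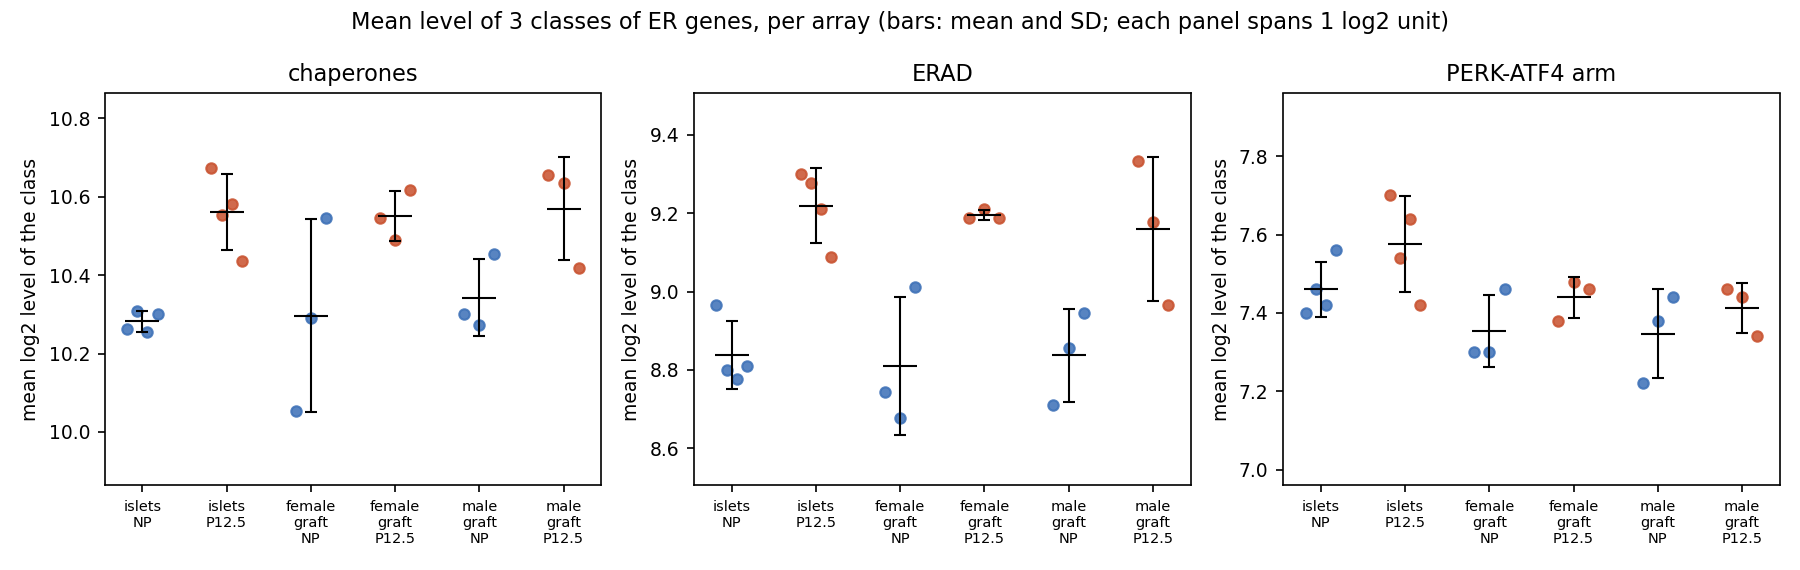
Mean log2 level of the 11 chaperones, 9 ERAD genes and 5 genes of the PERK-ATF4 arm on each array (points), with group mean and SD (bars); every panel spans 1 log2 unit, and blue is NP and red P12.5. The ERAD means of NP and P12.5 are separate in islets and in grafts of either sex, and those of the PERK-ATF4 arm overlap throughout.

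A few genes were higher in all 3 comparisons, but the largest differences were not the same throughout. The 3 differences of a gene, and the overlap of its groups, came from separate arrays. Calls in female and male grafts came from the same fit to all graft arrays, with a shared estimate of spread. Those calls were therefore not independent of each other. Sdf2l1 was called in islets alone, and Dnajb9 and Syvn1 in the mean of the grafts alone. Edem1 was called up in islets, female grafts and male grafts, as were 0.15% of all genes. P12.5 was higher without overlap in all 3 comparisons for 5 of the 37 genes (13.5%), Derl3, Dnajb11, Edem1, Ern1 and P4hb, against 0.652% of all genes. A positive difference in all 3 was found for 20 of 37 (54.1%), against 18.7% of all genes, and Atf6 and Herpud1 were at or below 0 in all 3. Across the 37 genes, Pearson's r of the differences was 0.676 between islets and female grafts, 0.642 between islets and male grafts and 0.862 between female and male grafts. Over all 19938 genes the values were 0.389, 0.241 and 0.588. The 37 genes lay at 6.1 or above on every array, against array medians of 5.9 to 6.0. All genes were not matched to them for level in this or the other comparisons, and the part of level was not tested. Genes are not independent replicates, and no p is given.

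Genes with and without an element in the promoter had differences of similar size. The 12 genes with ERSE or ERSE-II had median differences of 0.19 in islets, 0.17 in female grafts and 0.17 in male grafts. The 20 genes with a promoter but neither element had 0.23, 0.13 and 0.15. Of the genes called in a pregnancy comparison, Derl3, Dnajb11 and Syvn1 had an element in the window. Edem1, Edem2, Ern1, Sdf2l1 and Dnajb9 had none. The other genes with an element were Hspa5, Hsp90b1, Canx, Herpud1, Calr, Creld2, Dnajc3, Ero1b and Pdia6, which were not called in any comparison.

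The differences were also tested between sexes and between settings. The donor-sex by pregnancy term of limma called 0 of the 37 genes and 0 of all genes in either direction, and 1 of the 37, Ppp1r15a, had an unadjusted p under 0.05 (male minus female -0.47 ± 0.17, adjusted p = 0.955). Between male and female grafts 0 of the 37 were called, against 0.0201% of all genes up and 0 down in NP, and 0.015% up and 0 down in P12.5. In NP hosts 0 of the 37 had an unadjusted p under 0.05, and in P12.5 hosts 1 had, Ppp1r15a (-0.30 ± 0.12, adjusted p = 0.977). The transplantation by pregnancy term, female grafts minus islets, called 0 of 37 and 0.00502% of all genes in each direction. Of the 37, Sdf2l1 (-0.53 ± 0.19, adjusted p = 0.23) and Pdia6 (-0.36 ± 0.16, adjusted p = 0.323) had an unadjusted p under 0.05. For Dnajb9 and Syvn1, called in the mean of the grafts alone, this term was 0.56 ± 0.32 and 0.49 ± 0.25 (adjusted p = 0.454 and 0.389). The SEs were 0.14 to 0.40 for the donor-sex term and 0.12 to 0.32 for the transplantation term over the 37 genes, so the missing calls do not show that the sexes or the settings act alike.

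Female grafts and islets were compared at matched states, between which other cell types differed by more than the ER genes. In NP the mean difference, grafts minus islets, was 3.04 over 11 kidney markers, 2.71 over 9 stromal, 2.01 over 9 macrophage, -0.77 over 8 endothelial and -3.55 over 17 acinar markers. Of each of the first 3 lists 9 markers were called up, and 5 endothelial and 14 acinar markers were called down. In P12.5 the same mean differences were 1.57, 2.79, 2.09, -0.60 and -3.28, and the part of these cells in the values below was not tested. In NP, 1 of the 37 genes was called, down in grafts, against 2.18% of all genes down and 6.5% up. It was Sec61b, a subunit of the translocon channel, at 7.9, 8.1, 8.1 and 8.2 in islets and 7.3, 7.7 and 7.4 in grafts (-0.61 ± 0.13, adjusted p = 0.00229), and the call was kept in 4 of 7 removals of an array. The chosen probe set of Sec61b lies by its number among probe sets of genes on chromosome 13, and the gene is on chromosome 4. Which sequence it reads was not tested. A probe set of the gene that lies among chromosome 4 probe sets had pregnancy differences of 0.35, 0.90 (adjusted p = 0.0217) and 0.60, against 0.25, 0.53 and 0.30 of the chosen one. Edem2 (-0.43) and Sel1l (0.38) passed the adjusted p but not the fold. Pdia4 was 9.9, 9.8, 9.9 and 9.7 in islets and 9.9, 10.2 and 10.2 in grafts (0.28 ± 0.11, adjusted p = 0.062), the largest difference in oxidative folding. In P12.5, 0 of 37 were called, against 4.03% of all genes up and 0.622% down, with 1 upward and 5 downward at an unadjusted p under 0.05. Atf4 passed the adjusted p but not the fold, at 8.7, 8.6, 8.7 and 8.2 in islets and 8.1, 8.1 and 8.0 in grafts (-0.48 ± 0.12, adjusted p = 0.0235).

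Among 127 further genes of the same processes, 2 (1.57%) were called up in each of the 3 comparisons, against 0.908%, 0.717% and 0.306% of all genes. In islets none was down, and the median was 0.18, with 107 of 127 (84.3%) positive, against 45.9% of all genes. The 2 up in islets were Fkbp11, a peptidyl-prolyl isomerase of secretory cells (0.90 ± 0.07, adjusted p = 0.000455), and Nupr1, a stress-induced chromatin protein (1.03 ± 0.12, adjusted p = 0.00461). In female grafts 2 were up, Fkbp11 (1.17 ± 0.17, adjusted p = 0.0141) and the signal peptidase subunit Spcs1 (0.87 ± 0.18, adjusted p = 0.0387). In male grafts 2 were up, Fkbp11 (1.03 ± 0.17, adjusted p = 0.0223) and Creb3l1, an ER-bound transcription factor (0.77 ± 0.16, adjusted p = 0.0463). The ATF4-induced mTORC1 inhibitor Ddit4 was the single gene down in each, at -1.03 ± 0.15 and -1.30 ± 0.15 (adjusted p = 0.011 and 0.00356). By class, 0 of 21 further ERAD genes were called in any of the 3, and of 27 further ATF4 targets and eIF2 genes only Nupr1 was called up in islets and Ddit4 down in grafts. Fkbp11 was thus the one further gene called up in islets and in grafts of both sexes.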

How the data were processed

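Total RNA was measured on 20 Affymetrix MoGene 1.0 ST arrays, grouped by their titles. The authors preprocessed the raw arrays by robust multichip analysis in aroma.affymetrix (R 2.12.2) and deposited log2 levels per probe set, rounded here to 1 decimal. No depth applies to arrays, and the number of arrays limits the precision. Of 35511 probe sets, 21789 had 1 gene symbol in the platform annotation, 1621 several and 12101 none. From these values, limma 3.58.1 in R 4.3.3 (lmFit, eBayes, two-sided) was fitted to the 8 islet arrays, the 12 graft arrays or, for grafts against islets, all 20, with no covariate and no filter on low levels. The threshold was an adjusted p under 0.05 (Benjamini-Hochberg) and a change of at least 1.5-fold. The script was tested on simulated data. The labels name biological replicates but no animals, so p-values reflect only how much these samples varied. The 37 genes, their classes, the further 127 genes and the markers were chosen with earlier results of these data known. All 37 were eligible to be named. Values per array are given for genes called, for central genes and for the largest difference of a class, and further ER genes are named where called. Motifs were counted with Python 3 in RefSeq promoters. Other normalizations, filters, weights, a replicate block and removal of each array were tried.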

Additional observations from a re-analysis of the deposited data

Results flagged for a closer look

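In groups of 4 arrays, a single array stood away from the other 3 for 17 of the 86 group and gene (or class) combinations examined. Chance flags about 1 in 20. The values are rounded to 0.1, so a gap of 1 step among 3 equal values is enough. In NP islets, array 1 stood apart for Hsp90b1 (11.5 against 11.8 on the other arrays), Pdia6 (11.0), Ero1a (8.6), Edem1 (9.4 against 9.1), Sel1l (9.4), Ern1 (9.2), Atf6 (9.4), Eif2ak3 (8.8) and the mean of the oxidative folding class (10.5). Array 3 stood apart for Dnajc3 (10.8) and Ssr1 (9.7), and array 4 for Sec61a1 (10.5). In P12.5 islets, array 1 stood apart for P4hb (11.9) and Edem3 (9.1), and array 2 for Herpud1 (10.2), Ddit3 (6.9) and Ppp1r15a (6.5). Without NP array 1, the islet calls of Edem1, Ern1, Derl3 and Sdf2l1 were kept and that of Edem2 was lost (adjusted p = 0.0514).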

How the results depend on the processing

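Of 522 alternative values of the class means and counts of called genes, 488 stayed within 1.5 times the count or, for class means, within 1 SD. Of the 522, 348 are counts, most of them of a result that was 0. A count that stayed at 0 is among the 488, so this share says little about the counts above 0, which are given below. The sign of a class mean changed in 2 of 174 values, both given below, where the reported differences (0.05 and 0.07) were smaller than 1 SD between arrays. Of the 18 calls of single genes, 7 were kept whichever array was left out, and 0 of the 317 alternative values of the 18 changed sign. The 7 were Derl3, Edem1 and Ern1 in islets and Derl3, Edem1, Edem2 and Ern1 in the mean over both donor sexes. That mean reuses the arrays of the single-sex graft calls, none of which was kept in every removal. The cause of the changes was not tested. With renewed quantile normalization, 3 genes were called up in islets, and the islet differences of the class means were 0.185 for chaperones, 0.111 for oxidative folding, 0.293 for sensors and 0.186 for the translocon. With array medians subtracted, 2 genes were called up in female grafts and 1 in male grafts, the class mean of the PERK-ATF4 arm in male grafts was -0.0333 (0.07 before), and 0 were called down in female grafts against NP islets. Array weights gave 4 calls up in male grafts, as did all 20 arrays in one fit. Without a fold minimum, female grafts against islets gave 1 up and 2 down in NP and 1 down in P12.5. With the mean of a gene's probe sets the translocon difference in female grafts was 0.385. Without female NP array 1 the oxidative folding difference in female grafts was -0.04 (-0.04 to 0.13 over the removals). Leaving out each array gave 3 to 4 calls up in islets, 0 to 3 in female grafts, 0 to 1 in male grafts and 4 to 7 in grafts of both sexes, and, for grafts against islets, 0 to 1 down in NP and 0 to 1 down in P12.5. The replicate numbers did not pair the arrays: deviations of same-numbered arrays correlated at -0.031 to 0.226 in islets, -0.242 to 0.074 in female grafts and -0.132 to 0.141 in male grafts. With the number as a replicate block, 1 gene was called up in female grafts and 0 in male grafts, and the adjusted p of Sdf2l1 in islets was 0.0558.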
